A study of Mus musculus with 12 samples.

Results

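Desmosomes were followed through the messenger RNA of 10 genes: the desmosomal cadherins Dsc2, Dsc3 and Dsg2, the plaque proteins Jup and Dsp, the plakophilins Pkp1, Pkp2, Pkp3 and Pkp4, and the membrane protein Perp. They were taken by symbol through the Entrez ID from a table of 27179 genes, all 10 were found, and 9 passed the filter on low values; Dsc3 did not. The members were chosen by their normalized counts over the 4 groups described here, so these values are given as a description, without a test. Counts of members called in limma, a linear model across all genes, stand beside the share of all genes called, and nothing is read from them. Polyadenylated RNA was measured in 12 libraries of mIMCD3, a mouse line of kidney inner medullary collecting duct epithelium. All cultures reached confluence over 48 h in 10% fetal calf serum and were then deprived of serum for 24 h. Each of the 4 groups had 3 libraries. The first was a control line labelled wild type, and the second the line Actr3 KO-1, which by its label has lost Actr3 (Actr3 KO). The third was a separate line that by its label lacks Actr3 and Ift88 (dKO). The fourth was Actr3 KO-1 with 0.5 µM ciliobrevin D, a drug that blocks cytoplasmic dynein, during the serum-free period (treated cells). The protocol gives solvent as the alternative to the drug, and the labels do not say which samples received it. Actr3 encodes a core subunit of the Arp2/3 complex, which starts branched actin filaments, and Ift88 a part of the transport machinery that builds cilia.

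A desmosome is a spot junction that fastens the intermediate filaments of neighbouring epithelial cells to each other. Desmogleins (Dsg) and desmocollins (Dsc) are cadherins that bind across the gap. Their tails hold plakoglobin (Jup) and the plakophilins (Pkp), and these hold desmoplakin (Dsp), which grips the keratin filaments. Simple epithelia such as that of the collecting duct are known to rely on Dsg2 and Dsc2, while the other desmosomal cadherins and Pkp1 are known mainly from stratified epithelia such as skin.

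Promoter sequence was at hand for Dsp, Jup and Pkp4, which carry the plaque and part of the contrast below, since Dsp and Jup were lower and Pkp4 was higher with ciliobrevin D. The stretches end at the base before each gene's start and are from RefSeq in the GRCm38.p6 build. That of Dsp lies at chr13:38151044-38151293 on the plus strand, that of Jup at chr11:100397840-100398040 on the minus strand and that of Pkp4 at chr2:59160600-59160849 on the plus strand. Capitals mark the GC box, GGGCGG or its reverse complement CCGCCC.
Dsp: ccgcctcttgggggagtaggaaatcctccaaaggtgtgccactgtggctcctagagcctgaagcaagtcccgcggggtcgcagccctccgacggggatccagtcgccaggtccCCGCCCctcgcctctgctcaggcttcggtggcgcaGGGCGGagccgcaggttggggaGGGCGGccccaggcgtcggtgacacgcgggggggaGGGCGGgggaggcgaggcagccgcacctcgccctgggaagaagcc
Jup: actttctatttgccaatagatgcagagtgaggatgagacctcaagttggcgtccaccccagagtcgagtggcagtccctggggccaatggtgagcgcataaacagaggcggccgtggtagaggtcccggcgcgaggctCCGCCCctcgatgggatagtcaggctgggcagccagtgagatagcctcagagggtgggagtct
Pkp4: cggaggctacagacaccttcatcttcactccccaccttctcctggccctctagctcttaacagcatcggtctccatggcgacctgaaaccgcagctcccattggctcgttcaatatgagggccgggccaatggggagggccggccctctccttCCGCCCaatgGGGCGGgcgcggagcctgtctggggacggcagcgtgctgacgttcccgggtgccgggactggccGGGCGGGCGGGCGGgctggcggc
The Dsp stretch held 4 GC boxes, the Jup stretch 1 and the Pkp4 stretch 5, of which those at its 3′ end overlap each other. Of 32851 mouse promoters, 32.7% held at least 1 GC box in 250 bases and 24.8% in the 201 bases available for Jup. The palindrome AACCGGTT, bound by grainyhead-like factors, and the E-box CAGGTG or CACCTG, bound by ZEB and SNAI factors, were searched on both strands and had no match in these 3 windows. The palindrome was present in 0.116% of promoters of 250 bases and the E-box in 17.2%. In 201 bases, as for Jup, the shares were 0.0944% and 14.5%. A further promoter entry for Pkp4 lies within the gene and was neither printed nor searched.

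Libraries held 28902562 to 38077987 reads, and values are counts divided by a size factor for each library (normalized counts), given as mean ± SD with n = 3. Differences between groups are given as log2 of value + 1, with their SE. Actr3 itself stood at 8336 ± 293 for control, 1218 ± 111 for Actr3 KO, 871 ± 38.6 for dKO and 1573 ± 180.2 for treated cells. Ift88 stood at 457 ± 14.9, 617 ± 34.2, 604 ± 29.8 and 438 ± 4.29 in the same order, and whole-gene counts check nothing about an edit of it. Of 13 collecting duct markers 12 were measured above the filter, with Epcam at 11486 to 20587 in the group means, but the water channel gene Aqp2 had 0 to 2 reads per group. The summed normalized counts of the list were 104832 to 111854 for control, 87186 to 94448 for Actr3 KO, 75231 to 82157 for dKO and 80274 to 82028 for treated cells, and their part in the member values was not tested. Abundant genes weigh most in such a sum. In Actr3 KO against control most of the list was lower, such as Krt8 (-1.38 ± 0.06). Cdh16 (0.95 ± 0.06), Tfcp2l1 (0.57 ± 0.06) and Hoxd8 (0.42 ± 0.08) were higher there. Each edited genotype was 1 line, so line and genotype cannot be told apart. Nothing in the labels tells separate cultures from repeat libraries, so the spread within a group may be technical. The name of 1 control column has a line number found in no title, and its library, which may come from a different control line, is called the unnumbered control below and counts as 1 of the 3 control libraries. In RNA from whole cultures, fewer cells of a kind and less RNA per cell cannot be told apart.

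**Figure D1:**
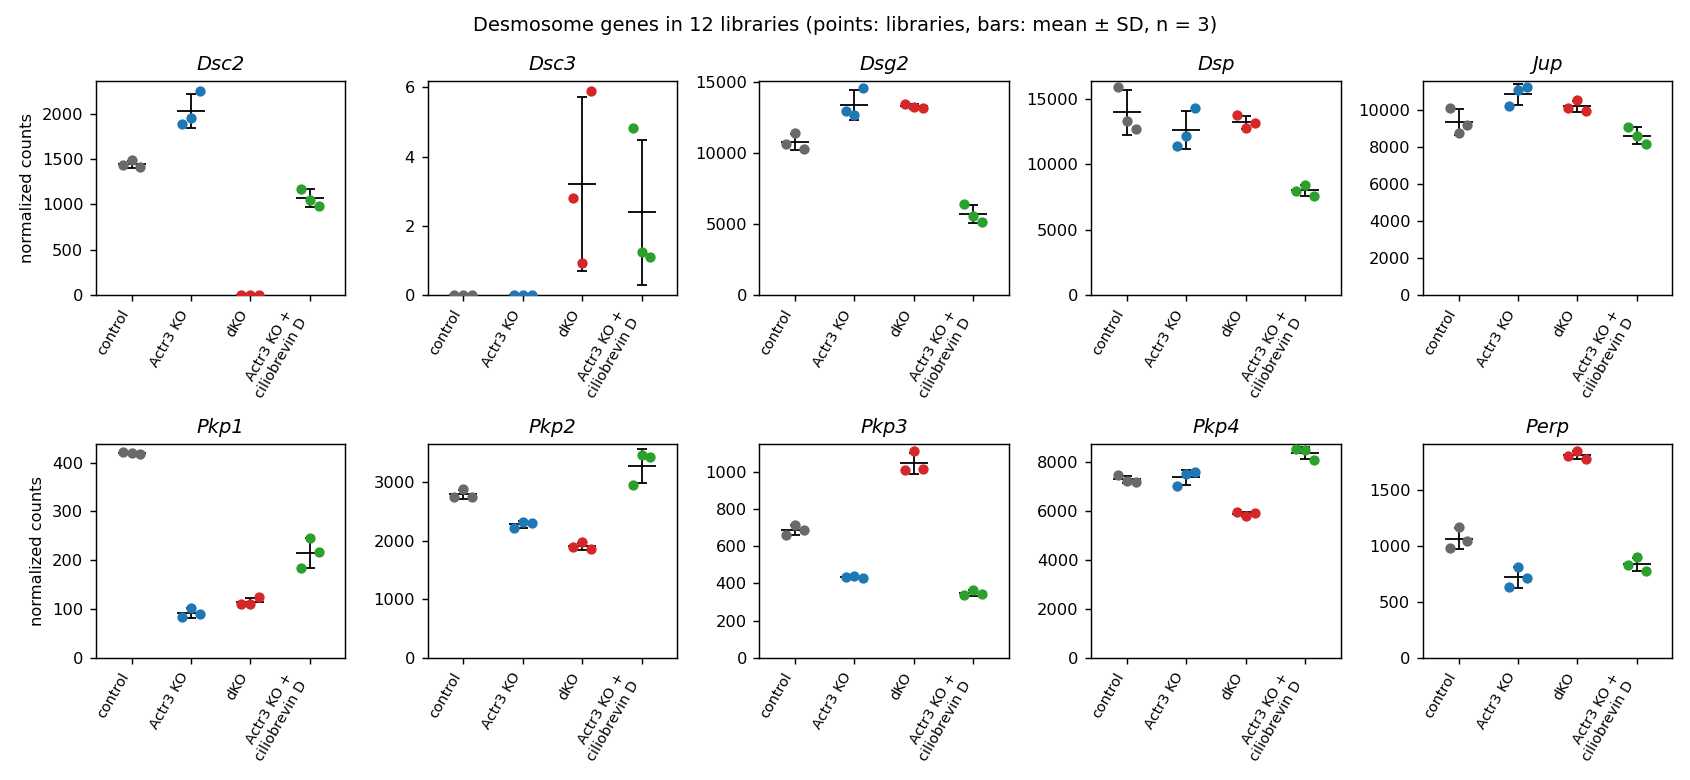
Normalized counts (vertical axes, each starting at 0) of the 10 desmosome genes in the 4 groups; points are libraries and bars are the mean ± SD of 3 libraries. Dsc2 stood at 0 in all 3 dKO libraries while Dsg2 lay between 13161 and 13483 in the same libraries.

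The cadherins were the most uneven members. Dsc2, the main desmocollin of simple epithelia (Entrez 13506, chromosome 18, 20030633 to 20059554, build GRCm38), stood at 1431 in control 1, 1409 in the unnumbered control and 1487 in control 3. In Actr3 KO its values were 1893, 1959 and 2251, and with ciliobrevin D 1173, 1048 and 981. All 3 dKO libraries had no read of Dsc2 among 95279196 reads. The groups stood apart in the order Actr3 KO, control, ciliobrevin D and dKO, with no overlap between neighbours. Dsc2 was higher in Actr3 KO than in control by 0.49 ± 0.10 on the log2 scale, a 1.41-fold difference. For a count of 0 reads, the 95% upper limit was taken as 3 reads over the group. Against this limit, Dsc2 was at least 2152-fold lower in dKO than in Actr3 KO and at least 1526-fold lower than in control. These bounds hold at 95% confidence and cover counting error only. With ciliobrevin D it was 1.91-fold lower than in untreated Actr3 KO cells (-0.93 ± 0.10).

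Dsg2, the desmoglein that pairs with Dsc2 in simple epithelia (Entrez 13511, chromosome 18, 20558074 to 20604526), did not share the absence in dKO. Its normalized counts were 10629, 10301 and 11408 in the control libraries, 12936, 12685 and 14604 in Actr3 KO, and 13483, 13262 and 13161 in dKO. Values with ciliobrevin D were 6379, 5602 and 5120.1. Actr3 KO and dKO overlapped, both lay above control, and the treated libraries lay below all others. The difference between dKO and Actr3 KO was -0.01 ± 0.07 on the log2 scale, and its sign turned under other scalings. In Actr3 KO against control it was 0.31 ± 0.07. Ciliobrevin D-treated cells had 2.36-fold less Dsg2 RNA than untreated Actr3 KO cells (-1.24 ± 0.07) and 1.9-fold less than control (-0.92 ± 0.07). An antisense gene, Gm16090, covers 330 of the 8268 exon bases of Dsg2. The sources used here do not give the strand setting of the counting, so reads of the pair cannot be told apart there.

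Dsc3 (Entrez 13507, chromosome 18, 19960930 to 20002410) is a desmocollin known from the basal layers of stratified epithelium. It had no read in any control or Actr3 KO library, 10 reads over the 3 dKO libraries and 6 over the 3 treated ones. In normalized counts the dKO libraries had 2.79, 0.925 and 5.89. The treated libraries had 4.81, 1.23 and 1.11. Dsc3 was therefore near the limit of detection, and the 10 reads in dKO compare with 2707 to 6149 reads of Dsc2 in the other groups.

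The other desmosomal cadherins were at trace levels too, and only Dsg4, a desmoglein known from hair, passed the filter. Its normalized counts were 17.7 ± 1.84 for control, 13.3 ± 1.30 for Actr3 KO, 20.5 ± 3.34 for dKO and 6.36 ± 1.66 for treated cells. It was lower with ciliobrevin D than in Actr3 KO (-0.98 ± 0.30, limma adjusted p = 0.00674, and 0.0561 by DESeq2). Its difference between dKO and Actr3 KO was 0.58 ± 0.30 (limma adjusted p = 0.0924, and 0.0486 by edgeR). Dsg3 had 1 to 10 reads per group, Dsc1 at most 4 and Dsg1c none. Dsg1a had 2 to 11 and Dsg1b 2 to 14, and the near-identical Dsg1 genes can trade reads, so their split is uncertain.

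Divided by exon length, the cadherin pool was Dsg2 first and Dsc2 second wherever Dsc2 was present. Dsg2 made 82.3% ± 0.33 of the cadherin level per kb in control, 80.6% ± 0.47 in Actr3 KO and 77.0% ± 0.27 in treated cells. Dsc2 made 17.3% ± 0.35, 19.1% ± 0.47 and 22.6% ± 0.38 in the same groups. In dKO the share of Dsg2 was 99.5% ± 0.09, Dsg4 gave 0.36% ± 0.06 and Dsc3 0.037% ± 0.029. The ratio of Dsg2 to Dsc2 normalized counts within a library was 7.47 ± 0.18 in control, 6.60 ± 0.20 in Actr3 KO and 5.33 ± 0.11 with ciliobrevin D. The treated cells therefore had less of both cadherins, with Dsg2 lower by more.

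**Figure D2:**
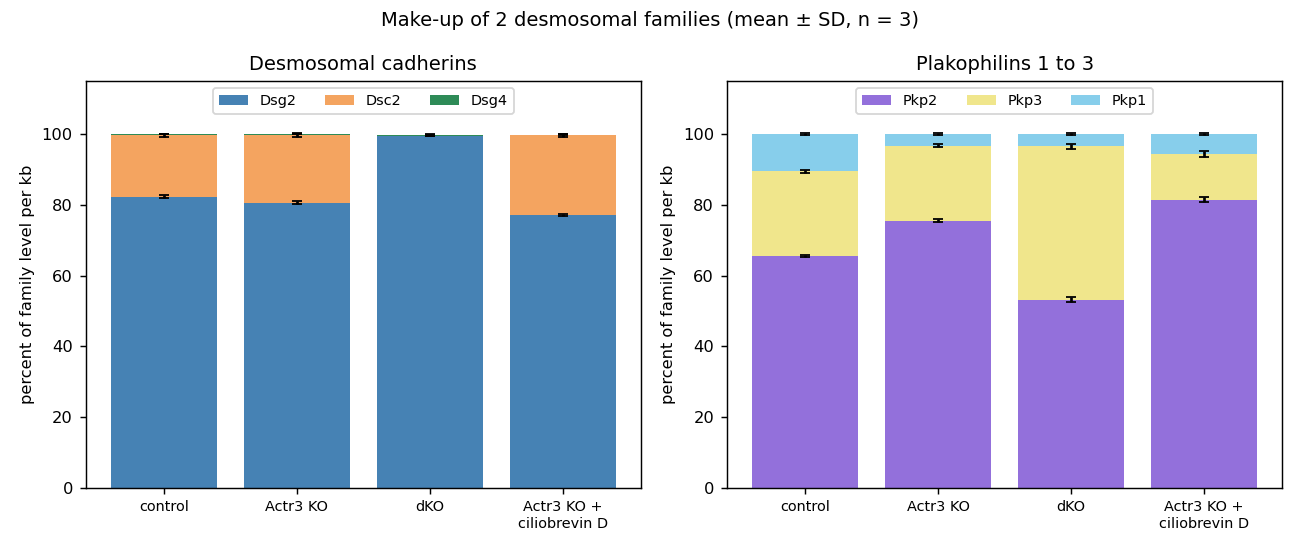
Share of each gene (percent of the family's level per kb of exon) among desmosomal cadherins and among plakophilins 1 to 3 in the 4 groups; segments are means and error bars the SD of the segment below them, n = 3. Dsg2 took 99.5% of the cadherin level in dKO, and Pkp3 took 43.4% of the level of plakophilins 1 to 3 there against 12.9% with ciliobrevin D.

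Dsc2 and Dsg2 sit in the same gene cluster, but few genes near Dsc2 had enough reads to compare. The start of Dsg2 lies 527 kb from that of Dsc2, with Dsc1, Dsg1c, Dsg1a, Dsg1b, Dsg4 and Dsg3 between them. Beyond Dsg2, the glycosyltransferase gene B4galt6 stood at 1533 ± 137 for control, 977 ± 37.7 for Actr3 KO and 751 ± 46.6 for dKO (dKO against Actr3 KO -0.38 ± 0.07, limma adjusted p = 8.07e-05). The trafficking gene Trappc8, 787 kb from Dsc2, had 3059 ± 141 in Actr3 KO and 2940.3 ± 116 in dKO, a difference of -0.06 ± 0.05 (limma adjusted p = 0.335). On the other side the nearest well-expressed gene was Cdh2, N-cadherin, 3442 kb away. Cdh2 fell from 12055 ± 897 in Actr3 KO to 6013 ± 259.8 in dKO (limma adjusted p = 6.22e-12). The tested genes named on both sides of Dsc2 were thus present in dKO. Between Dsc2 and Dsg2 only Dsg4 passed the filter, at trace levels in every group. The stretch next to Dsc2 was therefore not measured.

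**Figure D3:**
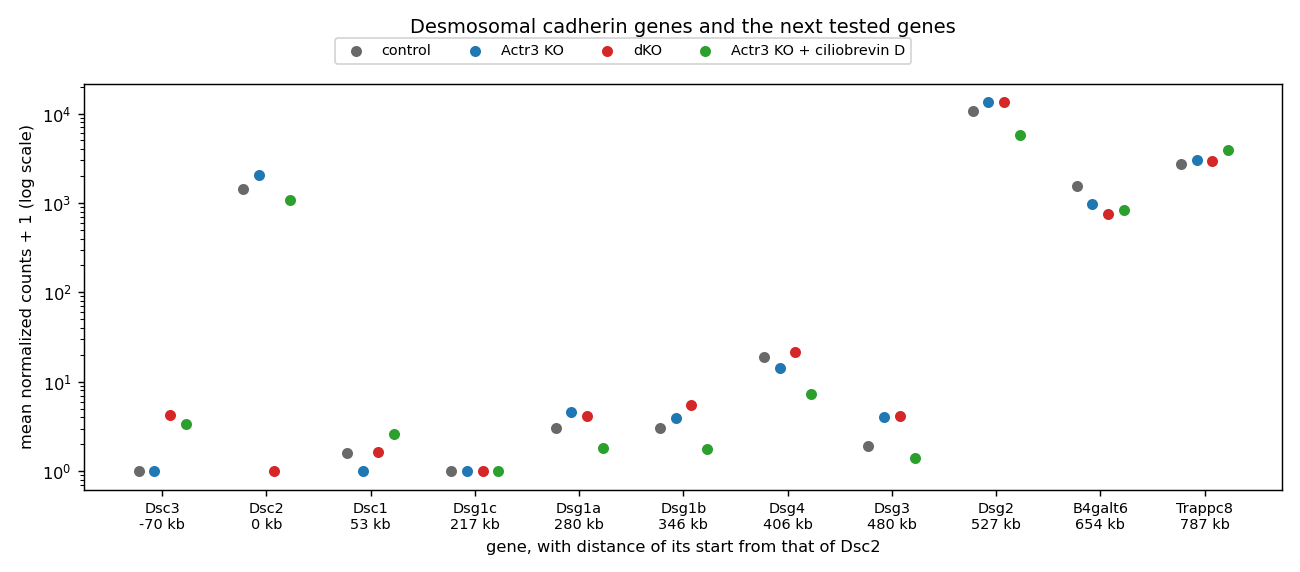
Mean normalized counts + 1 (log scale) of the desmosomal cadherin genes and the next tested genes on one side, ordered along the horizontal axis by the distance of each start from that of Dsc2 (kb); colours are the 4 groups. In dKO, Dsc2 had no read while Dsg2, 527 kb away, had a mean of 13302.

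The 5 genes nearest to Dsc2 in pattern over the 12 libraries came from 5 other chromosomes. Likeness was the root mean square difference of mean-centred log2 values, which is largely set by the 3 dKO libraries. Bhlhb9, on the X chromosome, was nearest at 0.50, at 707 ± 86.2 for control, 825 ± 16.9 for Actr3 KO and 652 ± 68.6 for treated cells, with no read in dKO. Galnt14 on chromosome 17 and Itga9 on chromosome 9 followed at 1.35 each, Igfbp2 on chromosome 1 at 1.55 and Clip3 on chromosome 7 at 1.61. Igfbp2 also had no read in dKO, and Galnt14, Itga9 and Clip3 had 2, 1 and 8 reads there.

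Across the 3 untreated groups the plaque genes Dsp and Jup differed by 0.21 or less on the log2 scale, and both were lower with ciliobrevin D. Dsp (Entrez 109620, chromosome 13, 38151294 to 38198577) encodes desmoplakin, the link to keratin filaments. Control libraries had 15962, 12706 and 13309, Actr3 KO libraries 11428, 12188 and 14285, and dKO libraries 13764, 12755 and 13130.2 normalized counts. These 9 libraries overlapped throughout. Those with ciliobrevin D, at 7974, 8440.1 and 7607, lay below all of them. The treated cells had 1.57-fold less Dsp RNA than untreated Actr3 KO cells (-0.65 ± 0.08) and 1.74-fold less than control (-0.80 ± 0.08). Actr3 KO differed from control by -0.15 ± 0.08, less than the spread of the control libraries, and by -0.21 without the unnumbered control or -0.24 without Actr3 KO replicate 3. An unconfirmed transcript model on the opposite strand, Gm10129, covers 499 of the 9659 exon bases of Dsp.

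Jup (Entrez 16480, chromosome 11, 100368856 to 100397839) encodes plakoglobin, the plaque catenin that desmosomes and adherens junctions share. It varied least among the 9 tested genes, with group means that spanned 0.33 on the log2 scale. Control libraries had 10107, 9168 and 8768, Actr3 KO 10195, 11080.4 and 11237, dKO 10128, 10530.2 and 9949, and treated libraries 9091, 8576 and 8161. Neighbouring groups in the order Actr3 KO, dKO, control and ciliobrevin D overlapped, while Actr3 KO lay wholly above control and above the treated libraries. Jup was 1.26-fold lower with ciliobrevin D than in Actr3 KO (-0.33 ± 0.06). The ratio of Dsp to Jup within a library was 1.49 ± 0.10 for control, 1.16 ± 0.09 for Actr3 KO, 1.30 ± 0.08 for dKO and 0.931 ± 0.054 for treated cells.

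Plakophilins 1 to 3 each took a different order of groups. Pkp1, known mainly from stratified epithelia (Entrez 18772, chromosome 1, 135871394 to 135919207), had 421, 417 and 419.6 in the control libraries. Actr3 KO libraries had 83.4, 102.5 and 89.0, dKO libraries 110.6, 111.0 and 124, and treated libraries 183, 244 and 217. The order control, ciliobrevin D, dKO and Actr3 KO had no overlap. Pkp1 was 4.55-fold lower in Actr3 KO than in control (-2.19 ± 0.12) and 2.32-fold higher with ciliobrevin D than without (1.21 ± 0.12). Between dKO and Actr3 KO it differed by 0.33 ± 0.12, and by 0.56 once the median of its chromosome had been removed. Without Actr3 KO replicate 1 this difference was 0.26 and without dKO replicate 3 it was 0.28. Of 5 cardiac muscle genes only Tnnt2 passed the filter, and the list summed to 779 to 1002 for control, 227 to 252 for Actr3 KO, 200.2 to 247 for dKO and 661 to 811 for treated cells, with Myh6 and Myh7 at 0 to 4 reads per group. The stratified and urothelial list, given with Perp below, was highest in control, as Pkp1 was. It was lowest in treated cells, where Pkp1 was above dKO and Actr3 KO. The part of either list in the Pkp1 values, or of the cardiac list in the Pkp2 values, was not tested.

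Pkp2, the plakophilin of simple epithelium and heart (Entrez 67451, chromosome 16, 16213345 to 16272712), had 2742, 2742 and 2886 in control. Values were 2209.7, 2326 and 2306 in Actr3 KO, 1889, 1970.1 and 1853 in dKO, and 2945, 3459 and 3436 with ciliobrevin D. The groups were apart in the order ciliobrevin D, control, Actr3 KO and dKO. Pkp2 was 1.43-fold higher in treated than in untreated Actr3 KO cells (0.52 ± 0.06) and lower in Actr3 KO than in control (-0.29 ± 0.06). In dKO it was lower than in Actr3 KO by -0.26 ± 0.06. The 431 tested genes of chromosome 16 had a median difference of -0.41 in the same comparison. With chromosome medians removed, the Pkp2 difference turned to 0.16 in dKO against Actr3 KO, and in dKO against control it went from -0.55 to -0.19. Whether the chromosome's shift accounts for the lower Pkp2 level was not tested further.

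Pkp3 (Entrez 56460, chromosome 7, 141078229 to 141090511), a plakophilin found in most epithelia, had 660, 686 and 716 in control and 432, 439 and 429.9 in Actr3 KO. In dKO it had 1009, 1114 and 1018 and with ciliobrevin D 336, 367 and 343. No groups overlapped, in the order dKO, control, Actr3 KO and ciliobrevin D, which for Pkp2 ran nearly the other way. Pkp3 was 2.41-fold higher in dKO than in Actr3 KO (1.27 ± 0.07) and 1.58-fold lower in Actr3 KO than in control (-0.66 ± 0.07). With ciliobrevin D it was lower than in untreated cells by 0.32 on the log2 scale (SE 0.07). The ratio of Pkp2 to Pkp3 normalized counts was 4.06 ± 0.08 for control, 5.26 ± 0.13 for Actr3 KO, 1.82 ± 0.05 for dKO and 9.41 ± 0.62 for treated cells. Per kb of exon, Pkp2 made 65.6% ± 0.28 of plakophilins 1 to 3 for control, 75.5% ± 0.37 for Actr3 KO, 53.2% ± 0.64 for dKO and 81.5% ± 0.72 for treated cells. Pkp3 made 23.9% ± 0.41, 21.3% ± 0.44, 43.4% ± 0.73 and 12.9% ± 0.76. Among plakophilins 1 to 3, Pkp2 thus led in every group, with Pkp3 nearest to it in dKO. With Pkp4 included, Pkp4 led in every group. It made 61.7% ± 1.01 of the level per kb for control, 69.6% ± 0.46 for Actr3 KO, 60.7% ± 1.21 for dKO and 66.1% ± 2.30 for treated cells.

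Pkp4 (Entrez 227937, chromosome 2, 59160850 to 59355205) is a more distant relative that is known from adherens junctions as well as desmosomes. It had 7456, 7189 and 7219 in control, 7017, 7513 and 7576 in Actr3 KO, 5936, 5795 and 5898 in dKO and 8526, 8475 and 8085 with ciliobrevin D. Control and Actr3 KO overlapped, dKO lay below them and the treated libraries lay above. The difference was -0.33 ± 0.05 in dKO against Actr3 KO and 0.18 ± 0.05 with ciliobrevin D.

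Perp (Entrez 64058, chromosome 10, 18845071 to 18857073) encodes a membrane protein that p53 and p63 induce and that desmosomes of stratified epithelia need. Its normalized counts were 981, 1045 and 1170.3 in control, 631, 816 and 710.4 in Actr3 KO, 1803, 1854 and 1782 in dKO, and 834, 897 and 780 with ciliobrevin D. The dKO libraries lay above all others, control came next, and treated and untreated Actr3 KO cells overlapped. Perp was 2.53-fold higher in dKO than in Actr3 KO (1.34 ± 0.08) and 1.49-fold lower in Actr3 KO than in control (-0.57 ± 0.08). The 655 tested genes of chromosome 10 had a median difference of 0.40 in dKO against Actr3 KO. With chromosome medians removed, Perp differed by 0.91 in dKO against Actr3 KO, and in dKO against control by 0.39 in place of 0.77. Stratified and urothelial markers also differed between the lines. Of 8, Krt5 and Upk1a passed the filter, and Krt14 and Trp63 had 1 to 3 reads per group. The list summed to 367 to 393 for control, 134 to 139.8 for Actr3 KO, 257 to 287 for dKO and 97.5 to 114 for treated cells. Their part in the Perp, Pkp1 and Pkp3 values was not tested.

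Between genes, levels compare only per kb of exon. The length used is the union of annotated exons, which can exceed the transcript expressed, so levels and shares between genes are approximate. In control Jup had 1452 and Dsp 1449 normalized counts per kb, Dsg2 1304 and Pkp4 1277. Perp had 546, Pkp2 521, Dsc2 273, Pkp3 190.1 and Pkp1 83.5. Cdh1, E-cadherin of the adherens junction, had 3232 per kb in control and 1373 with ciliobrevin D. The ratio of Dsg2 to Cdh1 normalized counts was 0.729 ± 0.015 for control, 0.961 ± 0.033 for Actr3 KO, 1.38 ± 0.09 for dKO and 0.907 ± 0.053 for treated cells. Of the 4 groups, dKO thus had the highest ratio of Dsg2 to Cdh1 RNA, while it lacked Dsc2 RNA. Together the 10 members took 0.139% to 0.153% of reads for control, 0.149% to 0.160% for Actr3 KO, 0.157% to 0.160% for dKO and 0.0961% to 0.108% for treated cells, so the treated libraries lay below all others.

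**Figure D4:**
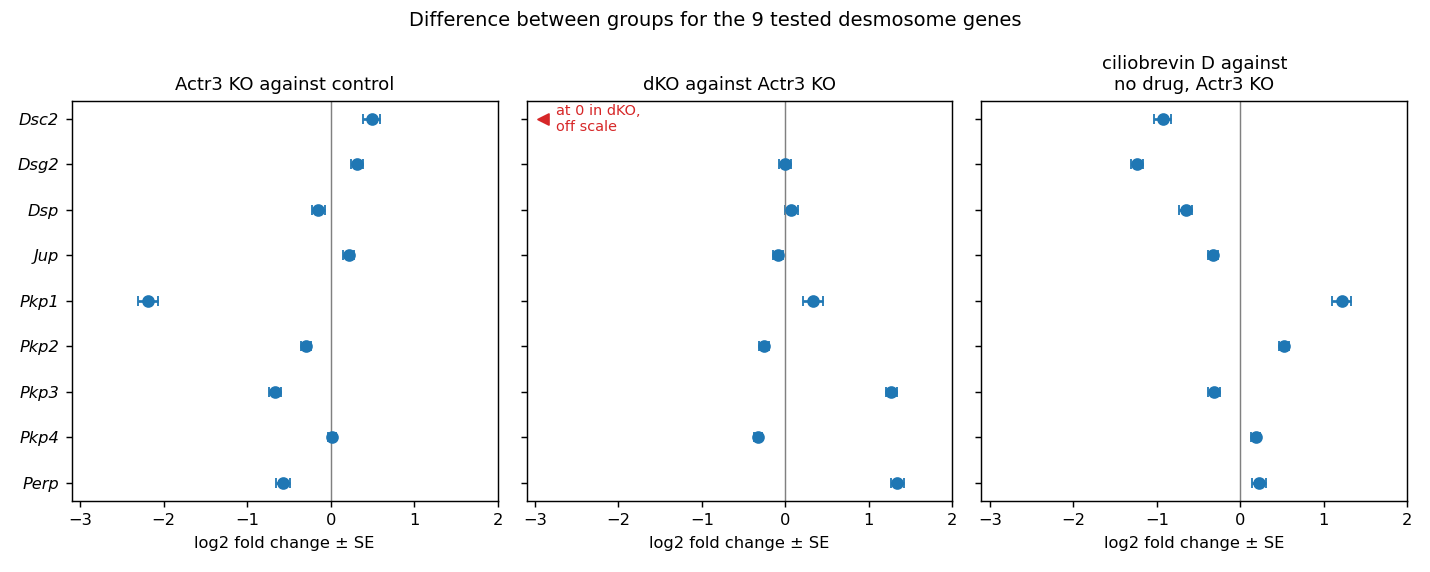
Log2 fold change ± SE (horizontal axes) of the 9 tested desmosome genes in Actr3 KO against control, dKO against Actr3 KO, and ciliobrevin D-treated against untreated Actr3 KO; Dsc2 in dKO is marked off scale because it had no read. Pkp1 lay at -2.19 in the first panel, Pkp3 and Perp at 1.27 and 1.34 in the second, and Dsg2 at -1.24 in the third.

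By comparison, the Actr3 knockout line had higher Dsg2, Dsc2 and Jup than control and lower Pkp1, Pkp2, Pkp3 and Perp, while Pkp4 and Dsp overlapped. The first 7 were called at an adjusted p of 0.05 in limma, against 69.8% of the 13939 genes tested, 3 of them higher (34.4% of genes) and 4 lower (35.4%). For 7 the groups did not overlap (73.3% of genes), and Pkp1 alone was called at 2-fold or more (12.1% of genes). The median size of the log2 difference was 0.31 for the members and 0.39 for all genes. Since the members were proposed from these contrasts, nothing is read from these counts here or below.

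The dKO line was set against Actr3 KO, from which it differs by its label in Ift88 and also as a separate line. It had no Dsc2 reads, higher Pkp3, Perp and Pkp1, and lower Pkp2 and Pkp4, while Dsg2, Dsp and Jup overlapped. Of the 9 members 6 were called, against 65.7% of genes, with 3 higher (32.5%) and 3 lower (33.2%). No overlap was seen for 6 (71.2% of genes), and 3 were called at 2-fold or more (9.51%). For dKO against control, which shares its dKO libraries with this comparison, 7 of 9 were called, against 67.1%, with 3 higher (32.0%) and 4 lower (35.1%). The same 7 did not overlap (72.0% of genes) and 2 were called at 2-fold or more (12.5%). Dsg2, Pkp3 and Perp were then higher, by 0.30 ± 0.07, 0.61 ± 0.07 and 0.77 ± 0.08, and Dsc2, Pkp1, Pkp2 and Pkp4 lower. Jup differed by 0.13 ± 0.06, and by 0.19 without control replicate 1. Pkp1 was 3.63-fold lower (-1.86 ± 0.12).

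Ciliobrevin D in the Actr3 KO line went with lower Dsg2, Dsc2, Dsp, Jup and Pkp3 and with higher Pkp1, Pkp2, Pkp4 and Perp. All 9 were called, against 65.5% of genes, with 4 higher (32.7%) and 5 lower (32.9%). For 8 the groups did not overlap (68.1% of genes), and for Perp they did (0.22 ± 0.08). Without Actr3 KO replicate 1 or ciliobrevin D replicate 2, Perp differed by 0.13 or 0.17. The median size of the log2 difference was 0.52 for the members and 0.34 for all genes, and 2 members were called at 2-fold or more, against 9.34%. Against control, with the same treated libraries, 8 of 9 were called, against 65.1%, with 2 higher (33.0%) and 6 lower (32.0%). The other was Jup, which differed by -0.16 without control replicate 3 or without ciliobrevin D replicate 1. Those 8 did not overlap (67.8% of genes), and none was called at 2-fold or more (10.5%). There Pkp2 and Pkp4 were higher, by 0.23 ± 0.06 and 0.20 ± 0.05. Dsg2, Dsc2, Pkp1, Dsp, Pkp3 and Perp were lower, Pkp1 and Pkp3 by about the same amount (-0.97 ± 0.12 and -0.98 ± 0.07). The dKO and the treated cells share the untreated Actr3 KO libraries as reference. Side by side, Pkp3 differed from these by 1.27 and -0.32, Pkp2 by -0.26 and 0.52, Pkp4 by -0.33 and 0.18, Dsg2 by -0.01 and -1.24, and Perp by 1.34 and 0.22. Pkp1 differed by 0.33 and 1.21, Jup by -0.09 and -0.33, and Dsp by 0.07 and -0.65. Dsc2 was lower in both, with no read in dKO and a difference of -0.93 with ciliobrevin D. Among marker lists of other cell types, 2 of 6 leukocyte genes passed the filter, which were Ptprc and Cd68. That list summed to 179.7 to 212 normalized counts for control, 158 to 169 for Actr3 KO, 136 to 156 for dKO and 314 to 364 for treated cells, so its sum was highest with ciliobrevin D. Cd68 was higher in treated cells than in control (1.04 ± 0.11), while Ptprc was lower (-0.99 ± 0.37). Against untreated Actr3 KO both were higher, by 1.04 ± 0.11 and 2.39 ± 0.37. The part of this list in the member values was not tested.

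The filaments and linkers that desmosomes attach to, adherens junction genes and assembly factors were counted against all genes. Of all genes, 34.4% rose and 35.4% fell in Actr3 KO against control, and 32.5% and 33.2% in dKO against Actr3 KO. With ciliobrevin D the shares were 32.7% and 32.9%. Of 13 tested genes among 19 keratins and other intermediate filament genes, 10 fell and none rose in Actr3 KO against control. The list's median log2 difference was -1.29 there, 0.19 in dKO against Actr3 KO and 0.49 with ciliobrevin D, where the medians of all 13939 genes lay between -0.02 and 0.01. Krt8, which forms the filaments of simple epithelium with Krt18, fell from 25272 ± 1454 to 9727 ± 560.0 normalized counts (-1.38 ± 0.06, limma adjusted p = 1.22e-13). Krt19 fell from 14835 ± 1179 to 4343 ± 202 (-1.77 ± 0.07, limma adjusted p = 4.39e-15). In dKO against Actr3 KO, 6 rose and 4 fell, among them Krt4, a keratin of stratified mucosa, from 44.6 ± 6.29 to 777 ± 29.9 (4.10 ± 0.17, limma adjusted p = 2.27e-14). Vim, vimentin, fell from 318 ± 49.3 to 70.6 ± 10.2 (-2.16 ± 0.15, limma adjusted p = 5.05e-11). With ciliobrevin D 7 rose and 2 fell, Krt19 to 13623 ± 996 (1.65 ± 0.07, limma adjusted p = 1.21e-14) and Krt18 from 5447 ± 382 to 10206 ± 653 (0.91 ± 0.06, limma adjusted p = 6.27e-11). The 2 that fell were Krt7 (-0.49 ± 0.06) and Krt4 (-1.17 ± 0.17). Krt18 and Krt19 RNA were thus higher with ciliobrevin D than in untreated Actr3 KO cells, while desmoplakin RNA was lower. Against control, treated cells had lower Krt18 (-0.38 ± 0.06), and Krt19 differed by -0.12 ± 0.07.

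Of 7 genes, plakins related to Dsp and the actin-binding Mtss1, 5 rose and none fell in Actr3 KO against control (median 0.23). Eppk1, epiplakin, rose from 1782 ± 224 to 4389 ± 587 (1.30 ± 0.10, limma adjusted p = 1.9e-10). In dKO against Actr3 KO, 6 fell and none rose (median -1.06), with Eppk1 at 1429 ± 132 (-1.61 ± 0.10, limma adjusted p = 7.72e-12) and Plec, plectin, down from 48205 ± 6829 to 19723 ± 614 (-1.28 ± 0.09, limma adjusted p = 1.39e-10). With ciliobrevin D 5 fell and none rose (median -0.33), with Evpl, envoplakin, down from 3788 ± 346 to 2453 ± 55.9 (-0.62 ± 0.07, limma adjusted p = 5.91e-08). Mtss1 was among these 5 (-0.32 ± 0.05). Dsp itself differed by 0.07 ± 0.08 in dKO against Actr3 KO, where most of these relatives fell.

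Of 17 tested adherens junction genes among 20, 7 rose and 3 fell in Actr3 KO against control, 10 fell and none rose in dKO against Actr3 KO, and 10 fell and 2 rose with ciliobrevin D. Over all genes, 34.4% rose and 35.4% fell in the first comparison, 32.5% and 33.2% in the second, and 32.7% and 32.9% in the third. The medians of the list were 0.14, -0.53 and -0.28. Cdh1 fell from 13979.6 ± 1415 to 6278 ± 431 with ciliobrevin D (-1.15 ± 0.07, limma adjusted p = 4.44e-12), a change of about the size seen for Dsg2. Cdh3, P-cadherin, fell from 10694 ± 708 to 5007 ± 350.3 in dKO against Actr3 KO (-1.10 ± 0.06, limma adjusted p = 1.32e-12). The ratio of Jup to its relative Ctnnb1, beta-catenin, was 0.457 ± 0.024 for control, 0.446 ± 0.014 for Actr3 KO, 0.386 ± 0.012 for dKO and 0.371 ± 0.005 for treated cells.

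Among 23 tested genes of 24 for desmosome-linked proteins and assembly factors, 7 rose and 7 fell in Actr3 KO against control, 6 rose and 7 fell in dKO against Actr3 KO, and 12 rose and 6 fell with ciliobrevin D. The medians were -0.04, 0.01 and 0.16, and in the first pair of comparisons the counts were near the shares over all genes. Cav1, the caveolin of membrane pits, fell from 2271 ± 30.6 in control to 635 ± 37.0 in Actr3 KO (-1.84 ± 0.08, limma adjusted p = 3.03e-14). Lmo7, an actin-linked junction protein, fell from 2542 ± 208 to 1081 ± 98.6 with ciliobrevin D (-1.23 ± 0.07, limma adjusted p = 1.19e-12). Ndel1, a dynein regulator that is also needed at desmosomes for microtubule anchoring, rose from 1525 ± 54.0 to 2898 ± 205 (0.92 ± 0.06, limma adjusted p = 1.46e-11).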

How the data were processed

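Per the labels' protocols, libraries were built from poly(A)-selected RNA. Per the submitters' processing notes, the tools were DESeq2 2.11.40.7, featureCounts 2.0.1, HISAT2 2.2.1 and fastp 0.23.2. The deposited values are a signal in which each count is divided by a size factor, with no correction for length. Dividing by each library's step gave whole reads throughout (tolerance 0.01 reads), and the steps equal DESeq2's median-of-ratios factors. The 13939 genes that reached 10 in 3 or more libraries were fitted as log2(value + 1) in limma 3.58.1 under R 4.3.3 (trend, 1 fit of 12 libraries, two-sided), with calls at a Benjamini-Hochberg adjusted p under 0.05. Levels per kb use the union of GENCODE vM21 exons. Gene coordinates are from the RefSeq GRCm38.p6 table. Members, lists and tests were chosen with earlier results of these data known. Partner genes were named by a rule: per list and comparison, up to 2 called genes with the smallest adjusted p, of which some are left out. Some are also given in comparisons where the rule did not pick them, such as Krt4, Krt7 and Mtss1 with ciliobrevin D against Actr3 KO. The alternatives changed the pseudocount (0.5 or 5), the filter (none, or a mean of at least 50), the scaling (TMM), the tool (edgeR 4.0.16 or DESeq2 1.42.0 on recovered reads), the replicate block, or left out 1 library. Subtracting chromosome medians was chosen after seeing the data. Scripts were tested on simulated data.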

Additional observations from a re-analysis of the deposited data

How the results depend on the processing

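The 45 fold changes of the 9 tested desmosome genes gave 675 values under the alternatives: 654 kept their direction and side of the threshold, 5 fell short of it, 7 passed it and 9 turned sign. The counts of genes past the threshold, for the members and for all genes, stayed within 1.5 times of those reported. In dKO against Actr3 KO, removing chromosome medians gave 0.16 for Pkp2, 0.143 for Dsg2 and -0.0566 for Dsp. Dsg2 there was also 0.0127 with TMM rescaling and 0.0103 in edgeR, and it ran from -0.0473 to 0.0543 with single libraries left out. Pkp4 in Actr3 KO against control was -0.0807 with chromosome medians removed and ran from -0.00519 to 0.050 with single libraries left out. Dsp in dKO against control ran from -0.142 to 0.0227. Apart from Pkp2, these were differences near 0. The cause was not tested. The counts of members called rest in part on single libraries or settings, given here as a description. Pkp1 in dKO against Actr3 KO was not called without Actr3 KO replicate 1 (0.26) or dKO replicate 3 (0.28). Perp with ciliobrevin D was not called without Actr3 KO replicate 1 (0.13), without ciliobrevin D replicate 2 (0.17) and with chromosome medians removed (0.18). Dsp in Actr3 KO against control was called without the unnumbered control (-0.21) or Actr3 KO replicate 3 (-0.24), and Jup against control was called in dKO with TMM rescaling (0.15), in edgeR (0.15) or without control replicate 1 (0.19), and with ciliobrevin D without control replicate 3 or ciliobrevin D replicate 1 (both -0.16).

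Replicate numbers did not mark pairs: deviations of same-numbered libraries correlated at -0.04 to 0.06 over 15 pairs, and those of other libraries at -0.08 to 0.10. With the replicate number as a block, which leaves out the unnumbered control, the calls over all genes came to 9080 for Actr3 KO against control (9724 without the block), 9158 in dKO against Actr3 KO (9164) and 9118 with ciliobrevin D against Actr3 KO (9136). The block changed no call on a member. Dsc3, Dsc1, Dsg1a, Dsg1b, Dsg1c and Dsg3 had too few reads for the filter and were not tested.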

Other observations

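Hemidesmosomes anchor keratins to the matrix below the cell, and their genes were counted beside the shares of all genes that rose or fell, 34.4% and 35.4% in Actr3 KO against control, 32.5% and 33.2% in dKO against Actr3 KO, and 32.7% and 32.9% with ciliobrevin D. Of 6 tested among 7, 5 rose and 1 fell in Actr3 KO against control, 5 fell and none rose in dKO against Actr3 KO, and 1 rose and 2 fell with ciliobrevin D, with median log2 differences of 0.65, -0.59 and -0.07. Itgb4, the integrin chain that binds plectin, rose from 5901 ± 312 to 14335 ± 1487 normalized counts in Actr3 KO against control (1.28 ± 0.06, limma adjusted p = 3.82e-13) and was 8464 ± 362 in dKO (-0.76 ± 0.06 against Actr3 KO, limma adjusted p = 1.36e-09).

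Transcription factors known to act on junction genes were counted against the same shares. Of 9 tested among 10 factors known as repressors of epithelial junction genes, 1 rose and 7 fell in Actr3 KO against control (median -0.70). The one that rose was Zeb1, from 144 ± 15.2 to 454 ± 4.74 (1.65 ± 0.09, limma adjusted p = 1.91e-12), and it was 174 ± 7.39 in dKO (-1.38 ± 0.09 against Actr3 KO, limma adjusted p = 3.51e-11). In dKO against Actr3 KO 4 rose and 3 fell (median 0.31). With ciliobrevin D 4 rose and none fell (median 0.53), with Zeb2 up from 184 ± 23.7 to 723 ± 77.5 (1.97 ± 0.12, limma adjusted p = 5.71e-12) and Twist2 up from 381 ± 41.5 to 1325 ± 145 (1.79 ± 0.09, limma adjusted p = 6.26e-13). Of 17 tested among 21 factors of epithelial and desmosome genes, 2 rose and 8 fell in Actr3 KO against control (median -0.26), and 8 rose and 4 fell in each of the other comparisons with Actr3 KO (medians 0.13 and 0.18). With 9 and 17 genes in these lists, the counts are given as a description only. Klf4 fell from 1188 ± 107 to 296 ± 25.4 in Actr3 KO against control (limma adjusted p = 2.34e-13) and rose to 2629 ± 391 with ciliobrevin D (3.14 ± 0.10, limma adjusted p = 3.36e-16). No link between these factors and the desmosome genes was tested.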
